A study of Mus musculus with 4 samples.

Results

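A set of 9 genes of the BCL2 family and the intrinsic (mitochondrial) apoptosis pathway were followed in single cells of P6 hyaloid vessels. They are *Bax*, *Bak1*, *Bcl2*, *Bcl2l1*, *Mcl1*, *Bcl2l11*, *Bbc3*, *Pmaip1* and *Cdkn1a*, chosen by name as core apoptosis genes of regressing vessels, and they make up 9 of the 32285 mouse genes listed. Vitreous bodies of P6 pups were pooled by genotype, giving 1 suspension of *Gpr124* fl/fl and 1 of *Gpr124* dEC/dEC cells. All pups carried floxed *Gpr124* and received tamoxifen; the dEC/dEC pups also carried VECad-Cre-ERT2, a tamoxifen-inducible Cre driven by the VE-cadherin promoter in endothelial cells, and the fl/fl pups were their Cre-negative littermates. Live CD31-positive or PDGFRB-positive cells that did not take up the dead-cell dye 7-AAD were sorted into 384-well plates, 2 plates per genotype. Which gate filled which plate is not tied to the libraries by the labels. SORT-seq marks the 3' end of each transcript with a barcode for its well and a random tag, the UMI, and the value of a gene in a well is its number of different UMIs.

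Hyaloid vessels feed the developing eye and are removed after birth, partly by apoptosis of their endothelial cells. In the intrinsic pathway, BAX and BAK1 permeabilise the outer mitochondrial membrane and release cytochrome c, which activates caspases through APAF1. BCL2, BCL-XL (encoded by *Bcl2l1*) and MCL1 hold BAX and BAK1 back, and BH3-only proteins such as BIM (*Bcl2l11*), PUMA (*Bbc3*) and NOXA (*Pmaip1*) neutralise these guardians or activate BAX and BAK1 directly. *Cdkn1a* encodes the cell-cycle inhibitor p21, a classical p53 target like *Bbc3* and *Pmaip1*.

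Of 1536 wells, 42 held 1000 to 8000 UMIs of mouse genes after plate scaling with a mitochondrial share under 10%. Among them, 11 wells with *Cldn5* and no *Pdgfrb* UMIs were taken as endothelial cells (5 fl/fl, 6 dEC/dEC) and 21 with the reverse as pericytes (9 fl/fl, 12 dEC/dEC). These 32 cells held 111508 UMIs, 1104 to 7226 per cell as deposited, before scaling. By plate, 14 endothelial markers other than *Cldn5* summed to between 83.7 and 133 per 10000 UMIs in the former class and between 9.22 and 9.72 in the latter, and 12 pericyte markers other than *Pdgfrb* to between 3.35 and 35.3 and between 103 and 183. The targeted gene, listed as *Adgra2*, had 3 and 0 UMIs in fl/fl and dEC/dEC endothelial cells and 7 and 17 in pericytes, too few to check the deletion, which 3' tags may not see. All 384 barcodes occur in every plate, and for 6 of the 32 cells the same barcode was also a retained cell elsewhere. All 12 dEC/dEC pericytes came from dEC/dEC plate 2, so plate and genotype cannot be told apart for them. With 1 suspension per genotype, no test between genotypes was possible. Intervals are exact, at 95%, and cover counting error only.

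*Mcl1* was the only abundant member. It held 38 of the 63 member UMIs of the 32 cells (60.3%) and ranked 433 of 10829 detected genes. *Bax* had 9 UMIs, *Bcl2* 6, *Bak1* 5, *Bcl2l1* 3 and *Bcl2l11* 2, while *Bbc3*, *Pmaip1* and *Cdkn1a* had 0. For the 3 undetected genes, a count of 0 over the 32 cells allows a level of up to 0.331 UMIs per 10000 (exact upper limit). The order *Bax*, *Bcl2*, *Bak1*, *Bcl2l1*, *Bcl2l11* below *Mcl1* rests on single UMIs, and neighbours in it do not differ beyond counting error.

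**Figure D1:**
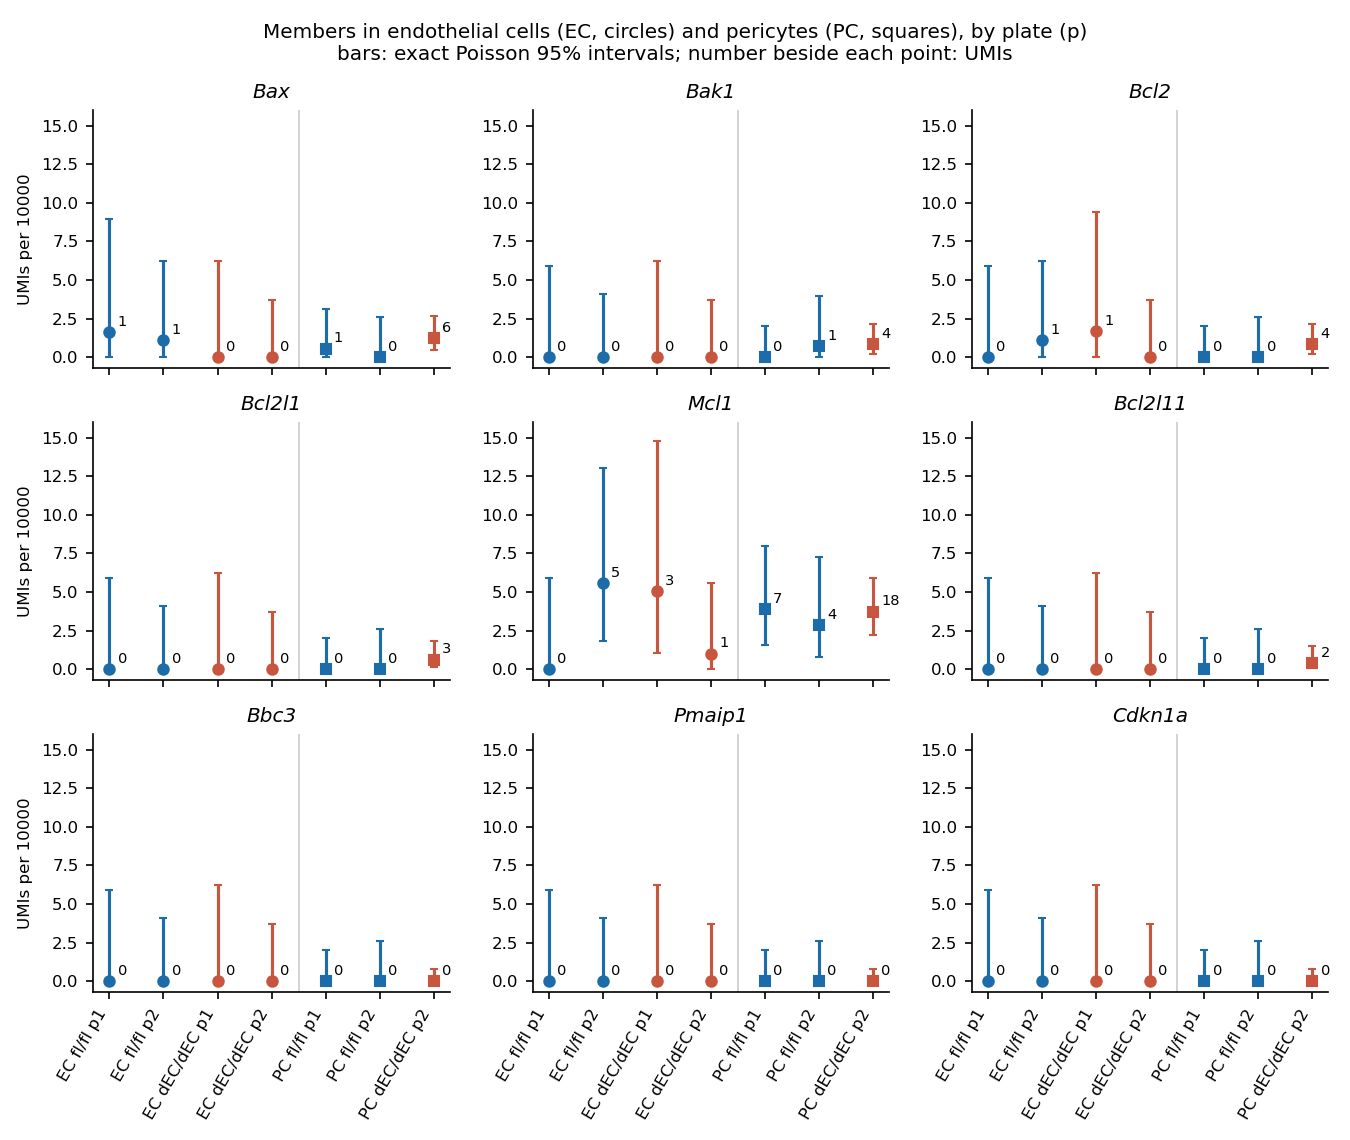
UMIs per 10000 UMIs of mouse genes (y axis) for each member in the endothelial cells (EC, circles) and pericytes (PC, squares) of each plate (x axis), with exact Poisson 95% intervals and the UMI count beside each point; fl/fl is blue and dEC/dEC red, and dEC/dEC plate 1 held no pericyte. *Mcl1* reached 2.84 to 3.89 per 10000 in the pericytes of 3 plates and 0 to 5.58 in the endothelial cells of 4, and every other member stayed below 2.

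Among the anti-apoptotic members, *Mcl1*, a short-lived guardian of mitochondrial integrity, was found in both cell classes. In endothelial cells it had 0 UMIs in fl/fl plate 1, 5 in fl/fl plate 2, 3 in dEC/dEC plate 1 and 1 in dEC/dEC plate 2, or 0, 5.58, 5.07 and 1.01 per 10000. In pericytes it had 7, 4 and 18 UMIs in fl/fl plate 1, fl/fl plate 2 and dEC/dEC plate 2, or 3.89, 2.84 and 3.72 per 10000. The endothelial sums thus spread on either side of the pericyte sums, and the classes overlap. They rest on few cells: 2 in fl/fl plate 1, 3 in fl/fl plate 2, 4 in dEC/dEC plate 1 and 2 in dEC/dEC plate 2. All 3 endothelial *Mcl1* UMIs of dEC/dEC plate 1 lay in 1 cell. The pericyte sums rest on 6, 3 and 12 cells in the order given above. Their means were 2.91 ± 2.82 (SD, n = 4 plates) and 3.48 ± 0.564 (SD, n = 3 plates) per 10000, with p = 0.743 in a two-sided exact permutation test over plate sums, which cannot give a p below 0.0571. That test took the sums as unpaired, although each plate with pericytes gave both an endothelial and a pericyte sum. Pooled over plates, the log2 ratio of pericytes over endothelial cells was 0.31 (-0.80 to 1.58), so equal levels and a level more than 2-fold higher in pericytes both lie inside the interval. Of the 9 endothelial UMIs, 5 came from fl/fl plate 2, where the endothelial cells also held 260 UMIs per 10000 of 6 erythroid genes against 0 to 5.07 in the other 3 plates, and the part of this was not tested.

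*Mcl1* UMIs were counted in 14 of 21 pericytes and 4 of 11 endothelial cells, with at most 7 in a cell. The detected shares were 66.7% (Clopper-Pearson 43.0 to 85.4) and 36.4% (10.9 to 69.2), at median depths of 3751 and 3020 UMIs, and 30.5% and 19.996% once every cell was thinned to 1000 UMIs, with no cell left out. *Hba-a1*, a haemoglobin gene that neither class should express, was detected in 14.3% of pericytes and 36.4% of endothelial cells. The endothelial share of *Mcl1* was thus the same as that of *Hba-a1*. These shares are not a like measure, because *Hba-a1* had many more UMIs than *Mcl1* in wells below 1000 UMIs. *Mcl1* had 3.54% of the *Hba-a1* UMIs in wells below 1000 UMIs (47 against 1327). It had 15.8% in endothelial cells (9 against 57) and 362.5% in pericytes (29 against 8). The part of RNA from outside the cell in these *Mcl1* counts was not tested. Over the 7 sums of class and plate, the genes whose log2 levels were most correlated with *Mcl1*, of 616 with at least 30 UMIs, were *Cnn3* (r = 0.91), *Prrc2b* (r = 0.91) and *Cpe* (r = 0.89), which is given as a description of sums that share plates and depths.

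*Bcl2*, the founding anti-apoptotic member, had 1 UMI each in fl/fl plate 2 and dEC/dEC plate 1 among endothelial cells. In pericytes its 4 UMIs lay in a single cell of dEC/dEC plate 2. *Bcl2l1*, which encodes BCL-XL, had 0 UMIs in endothelial cells and 3 UMIs in 3 pericytes of the same plate. Both genes were detected in shares of pericytes (4.76% and 14.3%) that did not exceed the 14.3% of *Hba-a1*. The shares are not a like measure, because *Hba-a1* had 1327 UMIs in wells below 1000 UMIs, against 13 and 16. Relative to *Hba-a1* UMIs, *Bcl2* stood at 0.980% in wells below 1000 UMIs and 50% in pericytes (4 against 8 UMIs). *Bcl2l1* stood at 1.21% and 37.5% (3 against 8 UMIs in pericytes). The part of RNA from outside the cell in these UMIs was not tested.

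The effectors *Bax* and *Bak1*, the pore-forming proteins, had 7 and 5 UMIs in pericytes and 2 and 0 in endothelial cells, at 80460 and 31048 UMIs in all. *Bax* had 1, 0 and 6 UMIs in the pericytes of fl/fl plate 1, fl/fl plate 2 and dEC/dEC plate 2, and 1, 1, 0 and 0 UMIs in the endothelial cells of fl/fl plate 1, fl/fl plate 2, dEC/dEC plate 1 and dEC/dEC plate 2. *Bak1* had 0, 1 and 4 UMIs in pericytes and 0 in endothelial cells. Each was detected in 5 of 21 pericytes (23.8%, 8.22 to 47.2), an interval that includes the 14.3% of *Hba-a1*. Relative to *Hba-a1* UMIs, *Bax* stood at 0.528% in wells below 1000 UMIs and 87.5% in pericytes (7 against 8 UMIs). *Bak1* stood at 0.377% and 62.5% (5 against 8 UMIs in pericytes). The part of RNA from outside the cell in these UMIs was not tested. The log2 ratio of pericytes over endothelial cells was 0.43 for *Bax* (-1.96 to 3.74); for *Bak1* with 5 against 0 UMIs the interval starts at -1.50 and has no upper end, so it includes equal levels. Levels of *Bax* and *Bak1* in the 2 classes could not be distinguished at this depth.

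The BH3-only members were scarcely detected. *Bcl2l11*, which encodes BIM, a protein associated with loss of survival signals, had 0 UMIs in endothelial cells and 2 in pericytes, 1 each in 2 cells of dEC/dEC plate 2. *Bbc3* and *Pmaip1*, the p53-inducible BH3-only genes, and *Cdkn1a* had 0 UMIs in every class and plate. In endothelial cells alone, the exact upper limit for a count of 0 was 1.19 per 10000, and in pericytes 0.458. Among the 7 retained wells with UMIs of neither class marker, 2 held 4 *Bcl2l11* UMIs (4.04 per 10000, 1.10 to 10.4), and this group of wells took 58.6 UMIs per 10000 of a list of 10 macrophage genes, all 10 of them detected, against at most 3.02 in the 2 named classes. The part of macrophage genes in this *Bcl2l11* level was not tested.

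**Figure D2:**
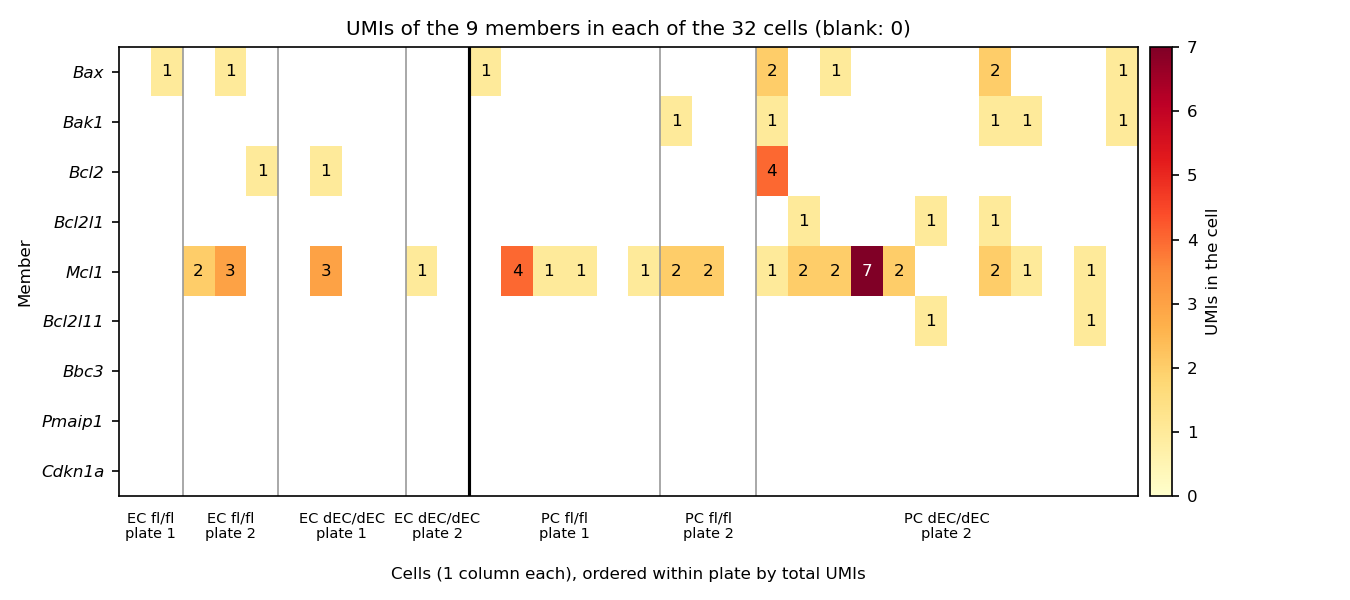
UMIs of each member (rows) in each of the 32 cells (columns, ordered by total UMIs within class and plate; the thick line separates endothelial cells, EC, from pericytes, PC), with colour and number giving the UMI count and blank meaning 0. *Mcl1* UMIs occur in 18 cells; the largest member sum, 8 UMIs, lies in a pericyte of dEC/dEC plate 2 with 4 *Bcl2*, 2 *Bax*, 1 *Bak1* and 1 *Mcl1* UMIs.

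Of the 32 cells, 23 held a UMI of some member, 11 of at least 2 members and 2 of at least 3. In endothelial cells, 6 of 11 cells held a member UMI and 4 of 11 a member other than *Mcl1*. In pericytes, 17 of 21 and 10 of 21 cells did. Both cells with at least 3 members were pericytes of dEC/dEC plate 2 with UMIs of 4 members each: one held 2 *Bax*, 1 *Bak1*, 1 *Bcl2l1* and 2 *Mcl1* UMIs, the other 2 *Bax*, 1 *Bak1*, 4 *Bcl2* and 1 *Mcl1*. UMIs of pro- and anti-apoptotic members therefore occurred in the same wells.

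The comparison of endothelial cells with pericytes asked whether the members differ between the vessel wall layers. No member passed the expression filter of the edgeR quasi-likelihood test over plate sums, in which 51 of 148 genes (34.5%) were called at an adjusted p under 0.05. Without that filter, 0 of the 6 detected members were called, with adjusted p of 0.505 to 0.916 and no unadjusted p under 0.05. The largest difference of these fits was in *Bak1*, with a log2 fold change of -3.31 (SE 1.84) for endothelial cells over pericytes, and *Mcl1* had -1.09 (SE 0.71, edgeR adjusted p = 0.565); the median over all 10829 genes of this fit was -1.15, so *Mcl1* lay near that median. With DESeq2, *Mcl1* had an adjusted p of 0.811 and the other 5 members received no adjusted p. Counting intervals of the pooled ratio excluded equal levels for 0 of 6 detected members, against 8.77% of all 10829 detected genes.

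Between genotypes, no member was called by the fixed fold of 2 among genes with at least 10 UMIs in a class. In endothelial cells 30.5% of 538 such genes exceeded that fold, and in pericytes 25.7% of 1915, which shows how often it is passed at this depth. *Mcl1* had 5 UMIs in fl/fl and 4 in dEC/dEC endothelial cells (3.29 and 2.52 per 10000), a log2 ratio fl/fl over dEC/dEC of 0.39 (-1.83 to 2.72). In pericytes *Mcl1* had 11 and 18 UMIs (3.43 and 3.72 per 10000), a log2 ratio of -0.12 (-1.35 to 1.04). Of the members, only *Mcl1* in pericytes reached 10 UMIs. Equal levels and differences of more than 2-fold both lie inside each of these intervals.

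Summed over all 9 members, pericytes held 13 UMIs in fl/fl and 37 in dEC/dEC, or 4.05 and 7.65 per 10000, a log2 ratio of -0.92 (-1.95 to 0.03) that includes equal levels. A sum without *Mcl1* was formed after the values were seen, so its interval is a description and supports no difference between genotypes. The 8 members besides *Mcl1* had 2 UMIs in 2 of 9 fl/fl pericytes and 19 UMIs in 8 of 12 dEC/dEC pericytes, or 0.623 and 3.93 per 10000. Their log2 ratio fl/fl over dEC/dEC was -2.66 (-5.80 to -0.61). By member, the UMIs in fl/fl and dEC/dEC were 1 and 6 for *Bax*, 1 and 4 for *Bak1*, 0 and 4 for *Bcl2*, 0 and 3 for *Bcl2l1* and 0 and 2 for *Bcl2l11*. No member on its own excluded equal levels, *Bax* having a log2 ratio of -1.99 (-7.52 to 1.05).

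This sum depended on the upper UMI limit. With wells above 8000 UMIs kept (12 fl/fl and 17 dEC/dEC pericytes), it was 13 against 27 UMIs, a log2 ratio of -0.48 (-1.56 to 0.52) that includes equal levels, and *Bak1* turned to 8 against 7 UMIs. The dEC/dEC pericyte with the most UMIs of these members held 7 of the 19. Without it the interval ended at -0.06, and without the 2 pericytes with the most such UMIs it ran from -5.04 to 0.56. Without fl/fl plate 1 it ran from -7.85 to 0.18. In dEC/dEC plate 2, the same plate, the 2 endothelial cells held 0 UMIs of these members in 9942, which allows up to 3.71 per 10000.

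Genes induced by tissue dissociation moved with the same sum: a list of 12 took 9.99 and 12.8 UMIs per 10000 in the pericytes of the fl/fl plates and 26.9 in those of dEC/dEC plate 2. Macrophage genes took 0 and 0 against 2.90 per 10000, with 6 of 10 detected in dEC/dEC plate 2. The part of either in the result was not tested.

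**Figure D3:**
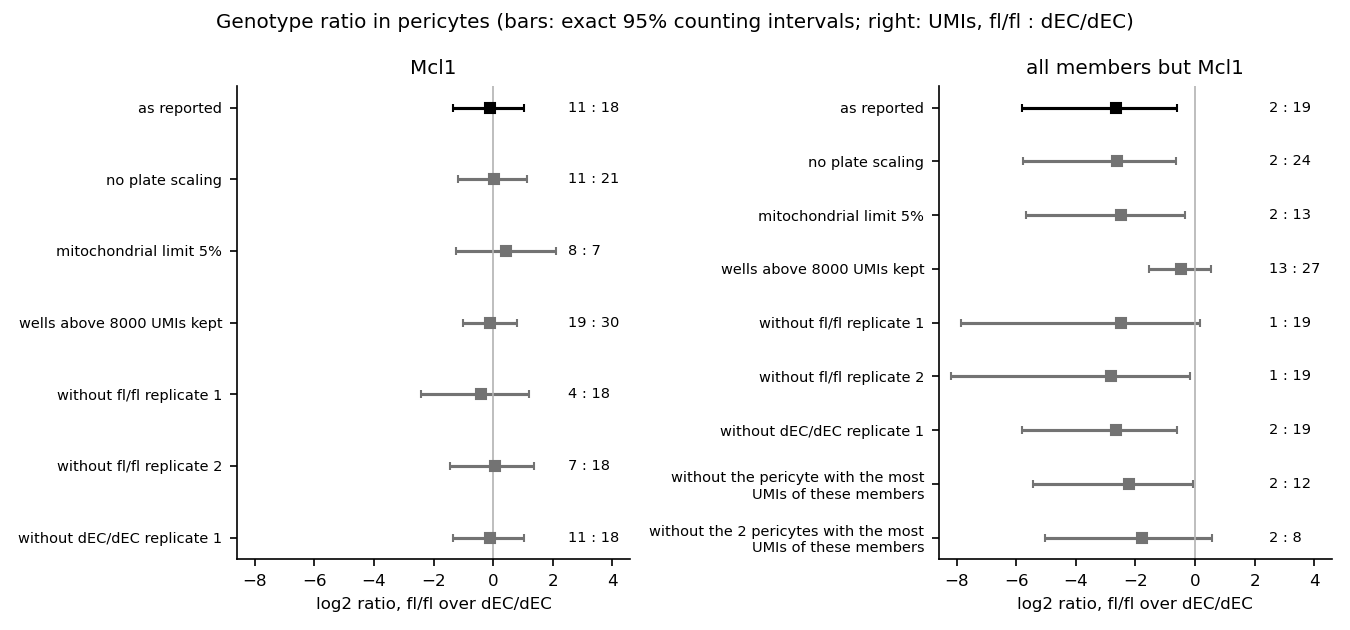
Log2 ratio fl/fl over dEC/dEC of UMIs per 10000 in pericytes (x axis, squares) for *Mcl1* (left) and the other 8 members summed (right) under the reported filters (black) and the alternatives (grey), with exact 95% counting intervals and the UMIs of fl/fl and dEC/dEC at the right. *Mcl1* stays around 0, from -0.39 to 0.42, and the sum moves from -2.66 to -0.48 once wells above 8000 UMIs are kept.

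In endothelial cells the same sum ran the other way, with 3 UMIs in fl/fl and 1 in dEC/dEC (log2 ratio 1.65, -1.99 to 7.36). These were 2 *Bax* and 1 *Bcl2* UMI against 1 *Bcl2* UMI, so a genotype difference was not detectable. The number of dEC/dEC endothelial cells with a member UMI was 2 of 6, against 4 of 5 in fl/fl, at median depths of 1663 and 3205 UMIs per cell.

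Most mouse UMIs did not lie in retained cells. The 1478 wells below 1000 UMIs held 225601 UMIs against 136103 in the 42 retained wells, and which wells received no cell, if any, is not given in the sources used here. A higher share of cells of a kind and more RNA per cell cannot be told apart in these sums. In wells below 1000 UMIs, *Mcl1* had 2.22, 1.54, 3.01 and 1.97 UMIs per 10000 in fl/fl plate 1, fl/fl plate 2, dEC/dEC plate 1 and dEC/dEC plate 2. In retained wells it had 2.30, 3.43, 4.57 and 3.23 in the same order. *Mcl1* was thus lower in the wells below 1000 UMIs in all 4 plates, but the groups overlap.

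The edgeR fit over the 4 plates gave *Mcl1* a log2 fold change of -0.57 (SE 0.32) for wells below 1000 UMIs over retained wells, with an adjusted p of 0.145, and an adjusted p of 0.150 to 0.894 under the 9 alternatives in which it was tested. It was the 1 member tested and was not called, while 54.5% of the 807 genes were. With no expression filter, 8 members were tested and 0 called. The only unadjusted edgeR p under 0.05 was then that of *Bbc3* (0.0226, adjusted 0.21). *Bbc3* had 6 UMIs in wells below 1000 UMIs and 0 in retained wells. With DESeq2, *Mcl1* and *Bcl2l11* had adjusted p of 0.795 and 0.863. The other members received no adjusted p and so could not be called. No member had an unadjusted DESeq2 p under 0.05.

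The remaining members were as sparse outside the retained cells. *Bcl2l1* had 5, 4, 4 and 3 UMIs in the wells below 1000 UMIs of the plates in the same order and 0, 1, 0 and 3 in retained wells, or 0.709 against 0.294 per 10000 over all plates (log2 ratio 1.27, -0.36 to 3.31). *Bcl2* had 13 against 6 UMIs (0.576 and 0.441 per 10000), *Bcl2l11* 11 against 6 and *Bax* 7 against 10. *Cdkn1a* had 1 UMI in the wells below 1000 UMIs of each plate and 0 in retained wells. *Pmaip1* had 0 UMIs in all of these wells and in those above 8000 UMIs. *Pmaip1* therefore has no ratio between wells below 1000 UMIs and retained wells. Each of the other ratios has an interval that includes equal levels. Of the 8 members with a UMI in these wells, 2 were higher in wells below 1000 UMIs without overlap between plates, *Bcl2l1* (0.492 to 1.10 against 0 to 0.484 per 10000) and *Cdkn1a* (0.154 to 0.274 against 0), as were 4.82% of the 14207 genes with a UMI there. *Bcl2l1* rests on 3 UMIs in each group of dEC/dEC plate 2 and *Cdkn1a* on 1 UMI per plate.

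After plate scaling 11 wells lay above 8000 UMIs, 8 of which had *Pdgfrb* without *Cldn5* UMIs. *Mcl1* reached 3.38 UMIs per 10000 in them (32 UMIs), close to the 3.16 of retained wells (log2 ratio 0.10, -0.61 to 0.79). *Bak1* had 11 UMIs in 5 of these wells, 1.16 per 10000 against 0.441 (log2 ratio 1.40, -0.16 to 3.12). It was detected in all 4 plates there, with 4, 3, 1 and 3 UMIs.

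**Figure D4:**
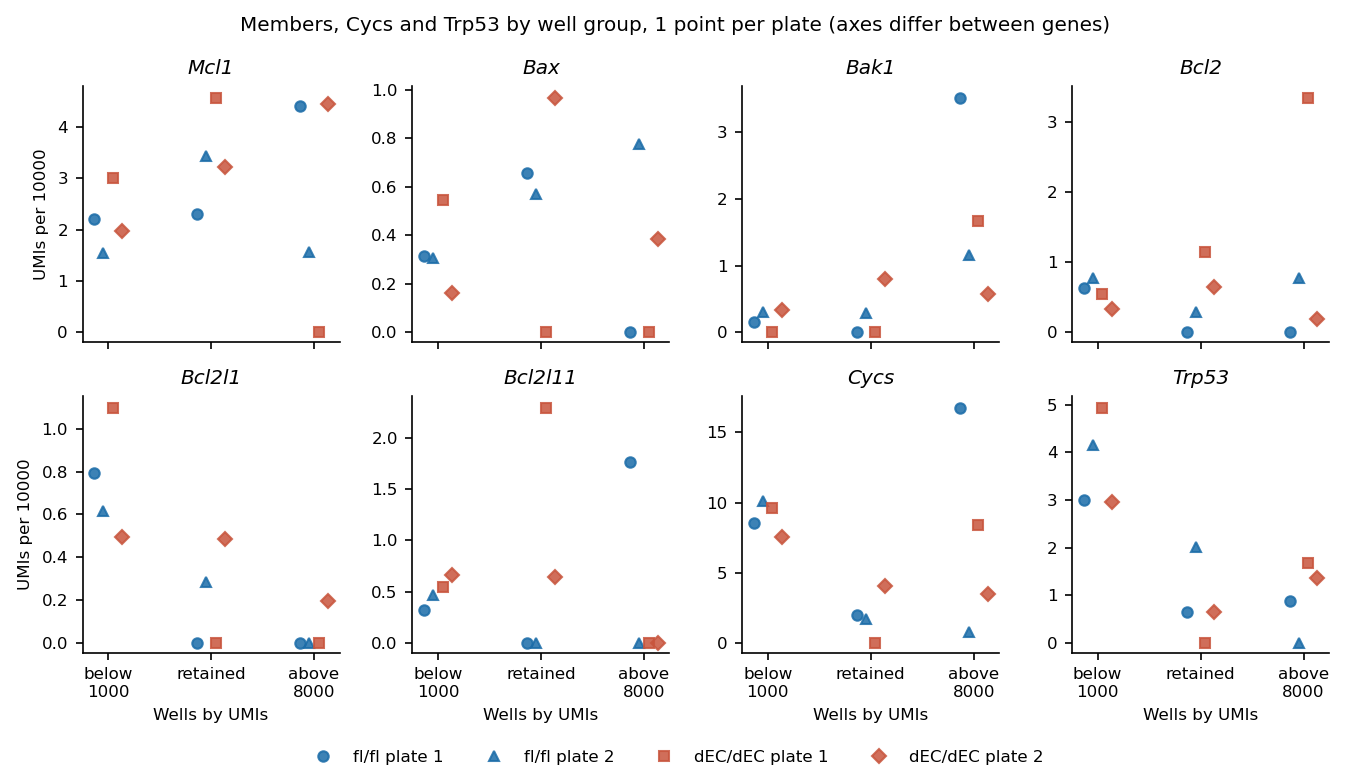
UMIs per 10000 (y axis, different scale per gene) of 6 members, *Cycs* and *Trp53* in wells below 1000 UMIs, retained wells and wells above 8000 UMIs (x axis), 1 point per plate, blue for fl/fl and red for dEC/dEC. *Cycs* lies at 7.55 to 10.1 in wells below 1000 UMIs and 0 to 4.03 in retained wells, and *Trp53* at 2.95 to 4.93 and 0 to 2.003, while of the 6 members shown *Bcl2l1* alone does not overlap (0.492 to 1.10 against 0 to 0.484).

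Around the members, 49 further pathway genes were read from lists of other BCL2 family genes, the apoptosome and caspases, inhibitors of apoptosis, mitochondrial channels and released proteins, p53 targets and regulators of BH3-only genes. In the 32 cells 36 of the 49 had a UMI and 1 had at least 30, *Cycs*. It encodes cytochrome c, a respiratory carrier that triggers apoptosome assembly once released, and had 5 UMIs in endothelial cells and 27 in pericytes (log2 ratio of pericytes over endothelial cells 1.06, -0.34 to 2.79). None of the 49 passed the filter of the class comparison. The 12 other BCL2 family genes together had 21 UMIs, the 7 apoptosome and caspase genes 47, the 7 inhibitors and antagonists 38, the 5 mitochondrial channels and released proteins 76, the 13 genes of the p53 list 42 and the 5 regulators 32.

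In the comparison of wells by depth, 4 pathway genes were tested and 2 were called, both higher in wells below 1000 UMIs, as were 28.3% of the 807 genes tested. *Cycs* had 8.55, 10.1, 9.59 and 7.55 UMIs per 10000 in the wells below 1000 UMIs of fl/fl plate 1, fl/fl plate 2, dEC/dEC plate 1 and dEC/dEC plate 2 and 1.97, 1.72, 0 and 4.03 in retained wells. Its edgeR log2 fold change was 1.80 (SE 0.34, adjusted p = 0.000455). *Trp53*, the gene of p53, had 3.01, 4.15, 4.93 and 2.95 UMIs per 10000 against 0.658, 2.003, 0 and 0.645, with an edgeR log2 fold change of 1.92 (SE 0.45, adjusted p = 0.00221). Both were higher in wells below 1000 UMIs in 4 of 4 plates without overlap. *Cycs* was also higher in wells above 8000 UMIs than in retained wells (44 against 37 UMIs, log2 ratio 0.77, 0.11 to 1.44). By plate it ranged there from 0.778 to 16.7 per 10000. *Trp53* had 9 against 13 UMIs in that comparison (log2 ratio -0.01, -1.41 to 1.33). *Cycs* has processed copies in the genome, so reads could be shared among them and its count is uncertain. The outer membrane channel genes *Vdac1* and *Vdac2* had log2 fold changes of 0.30 (SE 0.35) and 0.22 (SE 0.28), with edgeR adjusted p of 0.491 and 0.508.

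Haemoglobin and other erythroid genes moved with the same wells: the list of 6 took 70.6 to 99.9 UMIs per 10000 in wells below 1000 UMIs of the 4 plates, all 6 detected in each, and 0.658 to 67.8 in retained wells. Its part in the levels of *Cycs* and *Trp53* was not tested. Split by total, *Cycs* had 5.26 UMIs per 10000 in the 292 wells under 100 UMIs, 10.5 in 1034 wells from 100 up to 300 and 6.12 in 152 wells from 300 up to 1000, and *Trp53* 4.68, 4.19 and 1.99. *Mcl1* had 2.34, 1.82 and 2.65 in these wells, which shows no order with depth.

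Among pathway genes, *Bmf*, *Foxo1* and *Ccng1* are given because, with the values known, their counting intervals excluded equal levels between the classes. That is 3 of the 36 detected pathway genes (8.33%), near the 8.77% of all detected genes, so it is no result about the pathway. *Bmf*, a BH3-only gene, had 8 UMIs in 6 of 11 endothelial cells of 3 plates (0, 4, 2 and 2 UMIs) and 1 UMI in 1 of 21 pericytes, a log2 ratio of pericytes over endothelial cells of -4.37 (-9.85 to -1.47). *Foxo1*, a transcription factor restrained by survival signalling, had 10 UMIs in 4 endothelial cells and 2 in 1 pericyte (-3.70, -6.93 to -1.47). *Ccng1*, a p53 target, had 4 UMIs in 2 endothelial cells and 1 in 1 pericyte (-3.37, -9.00 to -0.04). *Bmf* had 4 UMIs in endothelial cells of each genotype and *Foxo1* 5. The BH3-only members *Bcl2l11*, *Bbc3* and *Pmaip1* had 0 UMIs in endothelial cells, which allows up to 1.19 per 10000 for each. *Bmf* stood at 2.58 per 10000 there on its 8 UMIs. It was picked with its values known, and a difference from these members was not tested.

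Some counts may include neighbours. In GENCODE M21 on GRCm38, *Bax* (ENSMUSG00000003873, chromosome 7, 45461697 to 45466898, minus strand) overlaps *Gm45808* on its own strand, and *Bcl2* (ENSMUSG00000057329, chromosome 1, 106538178 to 106714274, minus strand) overlaps *Mir3473f* and *Gm37053*. *Mcl1* (ENSMUSG00000038612, chromosome 3, 95658788 to 95663176, plus strand), *Bcl2l1*, *Bcl2l11*, *Bbc3* and *Pmaip1* overlap no annotated gene, and *Bak1* and *Cdkn1a* overlap genes of the opposite strand.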

How the data were processed

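The members and gene lists were chosen with earlier results of these data known. The authors aligned reads to GRCm38 with STARsolo 2.7.11b and deposited, for every well, collision-corrected estimated counts that need not be whole and are not scaled between plates. The design had assumed whole counts. Each value was therefore rounded before summing (moving no member sum by more than 0.01) and used as deposited for well totals. Spike-ins were left out, totals were scaled to the highest plate median, and wells of 1000 to 8000 UMIs with a mitochondrial share under 10% (13 genes) were retained. Mouse UMIs per plate ranged from 51972 to 174645, and the medians per well from 81.5 to 157. Doublets were not called, 32 cells being too few, and 3 wells with both class markers were left out. Sort gates were not used, and wells without a sorted cell were not identified.

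UMIs per 10000 have exact Poisson intervals, ratios exact conditional binomial intervals and shares Clopper-Pearson intervals, at 95% and for counting error only. The 2 plates of a genotype come from 1 suspension, so p-values measure a spread that is partly technical. Plate sums were tested with edgeR 4.0.16 (TMM, filterByExpr, quasi-likelihood test, Benjamini-Hochberg over all tested genes) on limma 3.58.1 and R 4.3.3, with DESeq2 1.42.0 as an alternative; scipy 1.17.1 (python 3.11.15, pandas 2.3.3, numpy 2.4.6) gave intervals and matplotlib 3.10.9 the plots. The scripts were tested on simulated data. Plates pair the well groups by design, since each plate gives both; the deviations of the 2 sums of a plate correlated at r = -0.01 to 0.10 in the class comparison and 0.07 to 0.34 in the depth comparison. All 9 members are named, with pathway genes of at least 30 UMIs in the 32 cells or called in a comparison, and the 3 genes most correlated with a member of at least 30 UMIs; *Bmf*, *Foxo1*, *Ccng1*, *Vdac1* and *Vdac2* stand outside this rule and were chosen after their values were seen. Of 6 regulators of BH3-only genes, *Ddit3* was left out, because its symbol stands on 2 lines.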

Additional observations from a re-analysis of the deposited data

How the results depend on the processing

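Of 119 alternative values, 5 moved. The other 114 kept their direction and side of the threshold, or lay within the counting interval of the reported value. Numbers of called genes counted as kept when within a fixed fold of the reported number. Some alternatives could hardly move, such as ratios whose cells stayed the same and sums without rounding. The count of 114 therefore does not measure robustness. The genes called between endothelial cells and pericytes, 51 as reported, were 160 with DESeq2 and 238 with no filter on low counts, both of which tested 10829 genes in place of 148, and 32 to 54 with a plate left out, the fewest without *Gpr124* dEC/dEC plate 2. The genes called between wells below 1000 UMIs and retained wells, 440 as reported, were 292 to 598 with a plate left out, 292 without that same plate. The log2 ratio of all members but *Mcl1* in pericytes moved from -2.66 to -0.48 with wells above 8000 UMIs kept; the cause was not tested. With plate as a replicate block, 46 and 429 genes were called in these comparisons, and no call of a member, *Cycs* or *Trp53* changed. *Mcl1* was lower in wells below 1000 UMIs under each alternative that tested it, from -0.69 to -0.14 on the log2 scale, and was never called; a mitochondrial limit of 5% left it untested. The log2 genotype ratio of *Mcl1* with a plate left out was -0.62 to 1.71 in endothelial cells and -0.39 to 0.06 in pericytes, that of all members -0.97 to 2.39 and -1.11 to -0.79. Leaving out *Gpr124* dEC/dEC plate 2 gave no pericyte ratio, since every dEC/dEC pericyte lies in it under the reported filters. These filters depend on the plate scaling. The 1 well of dEC/dEC plate 1 above 8000 UMIs held 5973 UMIs as deposited, at a scaling factor of 1.93. With no plate scaling, 14 dEC/dEC pericytes were retained in place of 12. In 8 sets of 4 plate values with at least 10 UMIs, a Dixon test, which sets a gap against the range, flagged no plate. With 4 values it can flag only an extreme gap, so it does not show that the plates are alike. At this depth, the reported interval of every single member's ratio included equal levels.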
